A study of Mus musculus with 16 samples.

Results

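The 8 genes described here are the endocannabinoid receptor gene Cnr1, the receptor-associated gene Cnrip1, and the genes of the enzymes that make or break down the main endocannabinoids, Dagla, Daglb, Mgll, Abhd6, Napepld and Faah. The rule names them by symbol and uses no measured value, although the set was proposed with earlier results of these data known. They are 8 of 24062 genes in the count table, and all 8 were found in both the count table and the FPKM table. All 8 passed the filter on low counts in each of 7 comparisons, with 647 to 9939 reads per gene and mouse.

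Endocannabinoids are lipids that a neuron makes from its membrane when it is active. They travel backwards across the synapse to the CB1 receptor, the product of Cnr1, which couples to inhibitory G proteins and lowers transmitter release, and this signalling is known to take part in the response to drugs of abuse in the brain. The most abundant of them in brain is 2-arachidonoylglycerol (2-AG), made by the diacylglycerol lipases Dagla and Daglb and hydrolysed mainly by Mgll and also by Abhd6, whereas anandamide is made through Napepld, among other routes, and hydrolysed by Faah.

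Whole brains with the cerebellum were taken at postnatal day 45 from 16 female C57BL/6J mice, with 4 mice in each of 4 groups, and RNA-seq libraries were sequenced from them. In the Water-Water group (WW) the mice drank tap water throughout. Nicotine-Water mice (NW) had 200 µg/ml nicotine freebase in their bottles for 22 h per day, Water-Ethanol mice had 20% v/v ethanol in drinking-in-the-dark sessions on 4 days, and Nicotine-Ethanol mice (NE) had both. Sessions lasted 2 h except the last, of 4 h, after which the brains were taken. Nicotine was offered for the 6 days before the sessions and on the 4 session days. It was removed during each session, so NE mice had nicotine and ethanol at different hours. No nicotine was present in the last 4 h. Treated mice set their own intake, and no water was offered beside the nicotine or the ethanol. No mouse thus had a fixed dose, and intake was not analysed here. The study reports that NE mice drank more ethanol than Water-Ethanol mice in the last session and had higher blood ethanol. The sequenced mice were a random subset of the mice in that comparison. In NE minus Water-Ethanol and in the nicotine effect, nicotine and a higher ethanol intake therefore cannot be told apart. In whole brain, fewer cells of a type and less RNA per cell cannot be told apart, and a change in a small region is averaged with the rest. The mice were housed 1 to a cage. Litters are not given in the sources used here, and p-values measure the spread between the 4 mice of a group. Mice are named by group and by the number in their label.

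Counted reads per mouse ranged from 27100352 to 32880979. WW mouse 21 and NW mouse 10 stood apart: the mean centred log2(CPM + 1) of 6 markers of cerebellar granule neurons, called the cerebellar score here, was -1.34 and -0.90 in them, against -0.01 to 0.27 in the other 14 mice, and Gabra6, a granule neuron receptor subunit, had 1069 and 1651 normalized counts there against 3418 to 4497 elsewhere. Results that rest on these mice are given with and without them. Markers of forebrain excitatory neurons, GABA interneurons, astrocytes, oligodendrocytes and microglia were all present in every mouse.

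All 8 are protein-coding genes in GENCODE. The positions in the count table, on GRCm38, were as follows. Cnr1 lies at chr4:33924632-33948831 on the plus strand with 2 exons, and Cnrip1 at chr11:17051934-17079372, plus strand, with 3. Dagla lies at chr19:10245265-10304877 on the minus strand with 20 exons and Daglb at chr5:143464493-143504442, plus strand, with 15. Mgll spans chr6:88724412-88828360 on the plus strand with 10 exons, and Abhd6 chr14:8002902-8056555, plus strand, with 9. Napepld spans chr5:21662903-21701345 on the minus strand with 5 exons, and Faah chr4:115996656-116017902, minus strand, with 15. No exon of the 8 genes overlapped an exon of another gene in that table, so reads of another gene on the opposite strand were not counted into them through a shared exon.

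The upstream sequences of Napepld, Abhd6 and Daglb are shown because these genes formed the strongest positive and the strongest negative pair among the members across the 16 mice, as described further on. Each run is the 250 bases before an annotated start in RefSeq on GRCm38.p6, which need not be the first base of the gene in the count table, read 5′ to 3′ on the gene's strand, with the cytosine-guanine pairs (CG) in capitals. The windows are chr5:21701623-21701872 (minus strand) for Napepld, chr14:8002638-8002887 (plus strand, the first of the starts listed for the gene) for Abhd6 and chr5:143464243-143464492 (plus strand) for Daglb.
Napepld: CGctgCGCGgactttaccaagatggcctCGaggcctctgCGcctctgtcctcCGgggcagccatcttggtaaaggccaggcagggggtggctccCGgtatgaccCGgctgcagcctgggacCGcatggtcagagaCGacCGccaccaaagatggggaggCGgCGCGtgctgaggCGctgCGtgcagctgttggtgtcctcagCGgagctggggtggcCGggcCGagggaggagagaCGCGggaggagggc
Abhd6: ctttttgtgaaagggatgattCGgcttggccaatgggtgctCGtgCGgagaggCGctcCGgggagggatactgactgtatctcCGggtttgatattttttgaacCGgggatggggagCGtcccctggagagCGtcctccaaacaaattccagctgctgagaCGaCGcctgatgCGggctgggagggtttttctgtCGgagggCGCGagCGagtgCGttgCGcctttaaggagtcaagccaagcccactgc
Daglb: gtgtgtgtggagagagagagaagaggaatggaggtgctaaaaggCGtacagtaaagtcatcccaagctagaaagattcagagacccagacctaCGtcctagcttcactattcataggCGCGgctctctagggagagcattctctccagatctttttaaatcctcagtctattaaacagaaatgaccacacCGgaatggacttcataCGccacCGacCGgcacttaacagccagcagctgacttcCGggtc
The Napepld window held 21 CG pairs, the Abhd6 window 18 and the Daglb window 9, and 83.7%, 78.3% and 59.7% of the 32851 windows of that length held fewer. Searched on both strands, none of these 3 windows held the GC box GGGCGG, found in 32.7% of all windows, the cyclic AMP response element TGACGTCA (1.55%), its shorter core TGACG (17.8%, a count that includes the full element), the E-box CACGTG (6.02%) or the TATA box letters TATAAA (12.4%). The absence says only that these letters are not in these windows. For Abhd6 it depends on the start shown: the window of another start, chr14:8002716-8002965, held 1 GC box and 22 CG pairs.

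The members differed far more from each other in level per transcript length than between groups. In FPKM, which is scaled for length, the mean over 16 mice was highest for Cnr1, at 52.4 ± 3.77 (SD), followed by Mgll at 48.6 ± 2.02 and Cnrip1 at 39.7 ± 2.61. Then came Abhd6 at 27.9 ± 1.73, Dagla at 21.8 ± 1.19, Faah at 17.8 ± 0.70, Daglb at 10.9 ± 0.51 and Napepld at 7.47 ± 0.74. Cnr1 stood above 90.6% and Napepld above 49.7% of genes kept in the FPKM table. The ranges of Cnr1 and Mgll overlapped, and Cnr1 was the higher in 12 of 16 mice. The ranges of Mgll and Cnrip1 also overlapped, although Mgll was higher within each of the 16 mice. From Cnrip1 downwards no neighbours in the order overlapped, and the ratio of neighbouring means lay between 1.22 and 1.63. The order was therefore the same in the 4 groups below Cnrip1. Of the enzyme pairs, each degrading enzyme that leads its pathway stood above the synthetic one: Mgll above Dagla, and Faah above Napepld.

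**Figure D1:**
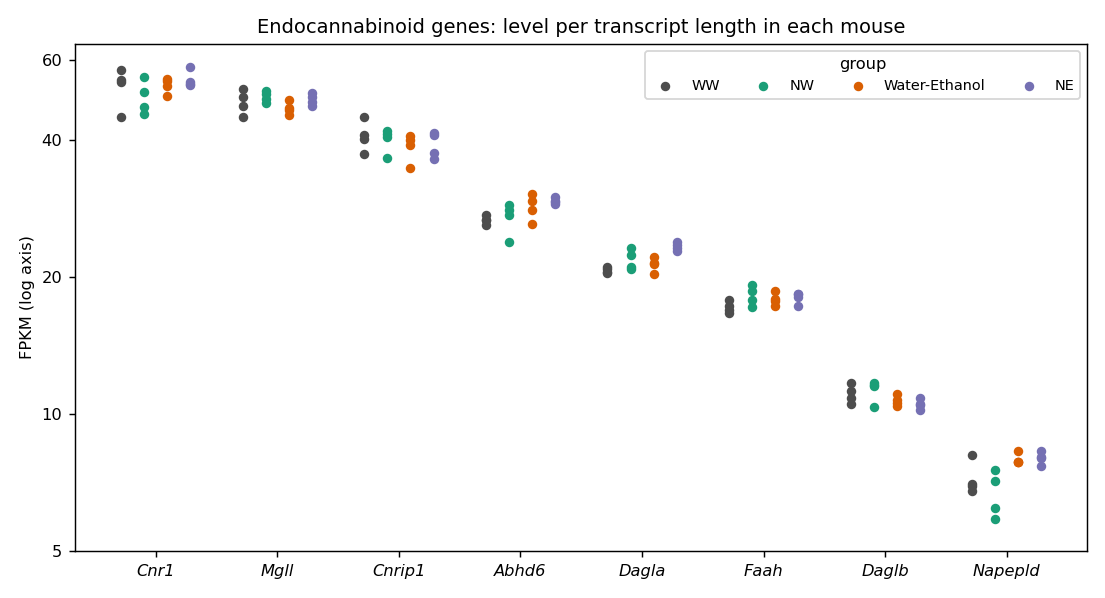
FPKM on a log axis for the 8 genes, ordered by mean level, with 1 point per mouse and colours for the groups. Levels fall from 52.4 for Cnr1 to 7.47 for Napepld, and differences between groups are small beside differences between genes.

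The groups were compared in 7 ways with edgeR's quasi-likelihood test and Benjamini-Hochberg adjustment over all genes tested, in which a gene was called at an adjusted p under 0.05. Each treated group was set against WW, and NE also against Water-Ethanol, to ask what each substance and their combination did to expression; a fit of all 16 mice gave the mean effect of ethanol over both nicotine arms, the mean effect of nicotine over both ethanol arms and their interaction. These comparisons share mice, the WW mice being the controls of 3 of them. One member was called: Napepld was higher with ethanol. In the ethanol effect 1 of 8 members was called against 4.5% of all genes (702 of 15592). In the other comparisons no member was called, against 0% of all genes in NW minus WW, 0.457% in Water-Ethanol minus WW, 0.313% in NE minus WW, 0% in NE minus Water-Ethanol, 0% for nicotine and 0% for the interaction.

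At an unadjusted p under 0.05 there were 0 members in NW minus WW and 1 in Water-Ethanol minus WW, against 8.44% and 19.3% of all genes. There were 3 in NE minus WW (17.5%) and 1 in NE minus Water-Ethanol (5.8%). The ethanol effect had 4 such members (22.9%), nicotine 1 (10.3%) and the interaction 0 (6.76%). DESeq2 called more genes than edgeR in each of the 7 comparisons: it called 2 members in NE minus WW, where it called 4.57% of all genes with an adjusted p, 1 for ethanol (8.05%) and 1 for nicotine (1.21%). It called no member in NW minus WW (1.16%), Water-Ethanol minus WW (4.61%), NE minus Water-Ethanol (0.0101%) or the interaction (0.0121%). The median log2 fold change over the members was 0.04 for ethanol, 0.02 for nicotine and 0.06 for NE minus WW, where the median over all genes was 0.002, 0.003 and 0.004. With 8 members, 1 gene more or less decides such a count.

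**Figure D2:**
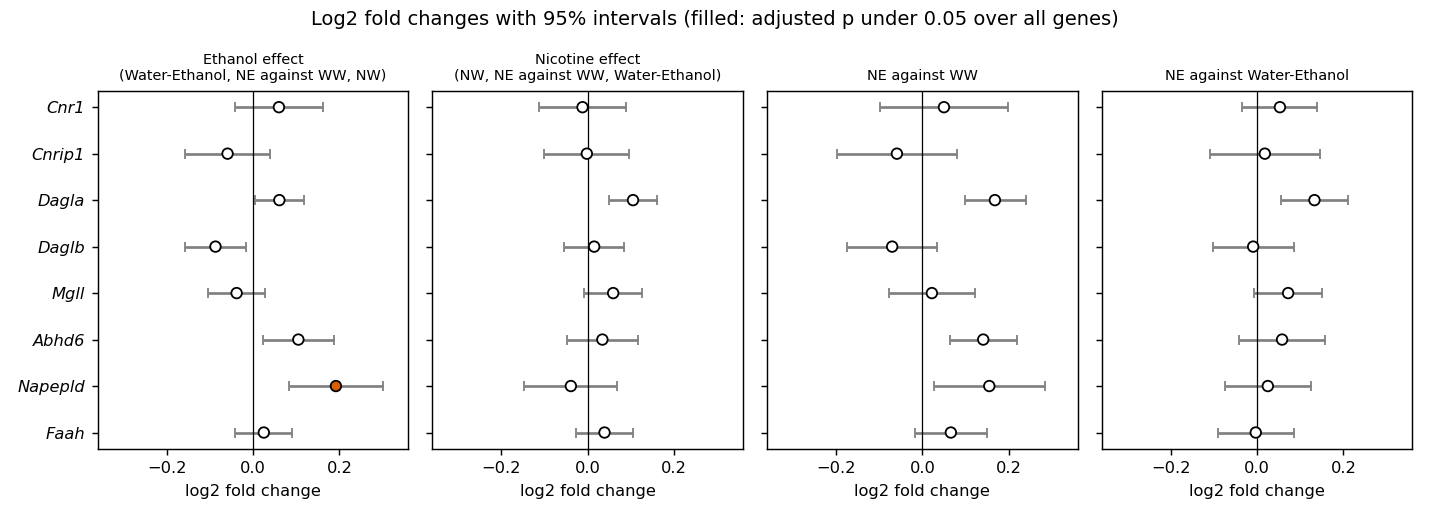
Log2 fold changes of the 8 genes with 95% intervals from edgeR in 4 comparisons, with filled points for an adjusted p under 0.05 over all genes. Napepld in the ethanol effect (0.19) is the filled point, and the intervals of Dagla lie above 0 in all 4 panels.

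**Figure D3:**
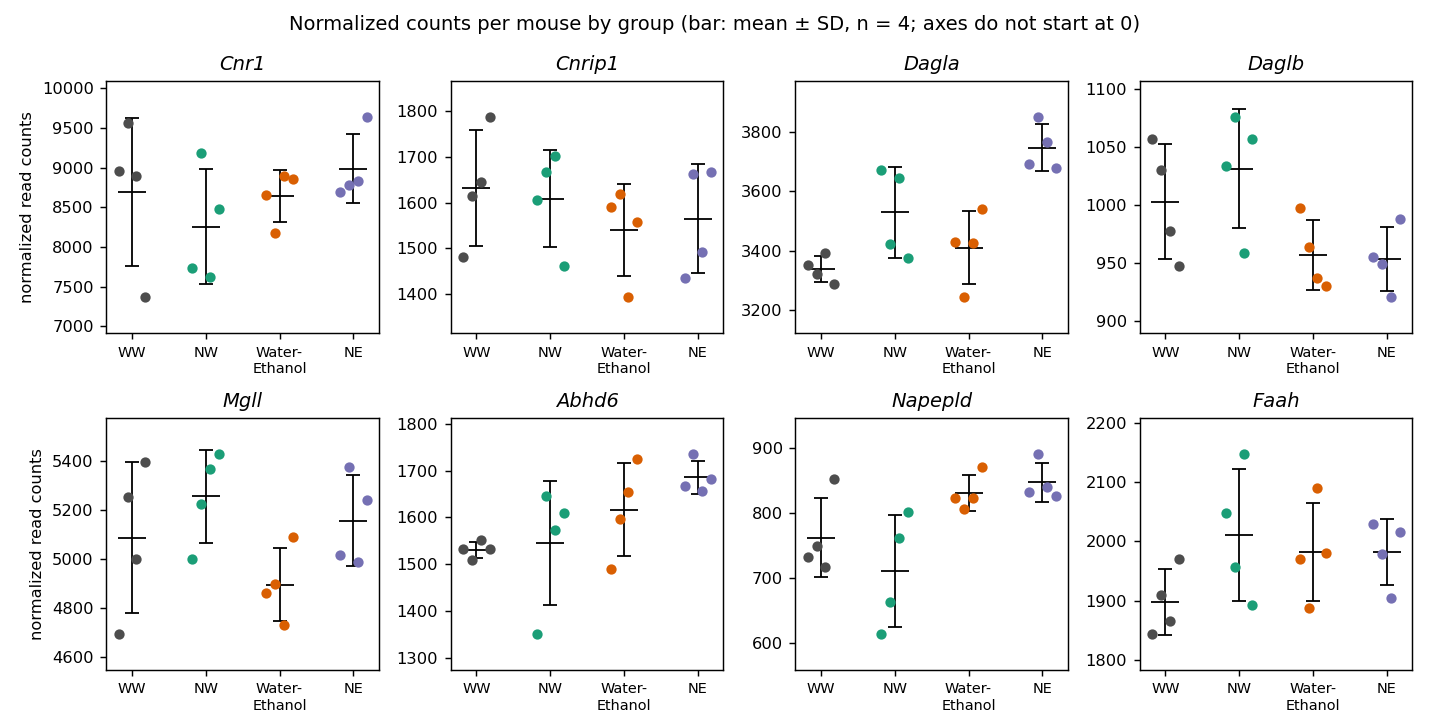
Normalized read counts of the 8 genes in each mouse by group, with the mean and SD of 4 mice as bars, on axes that do not start at 0. Napepld lies between 806 and 892 in the 8 ethanol mice, and Dagla from 3678 to 3850 in the NE mice, just above the highest NW mouse at 3673.

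In the ethanol effect Napepld had the largest fold change of the 8 genes and Faah, the other anandamide enzyme, the smallest. Napepld, the phospholipase D that releases anandamide and related N-acylethanolamines from membrane phospholipids, had 732, 749, 717 and 852 normalized counts in WW mice 18, 19, 20 and 21. In NW mice 7, 8, 10 and 11 it had 614, 664, 762 and 801. The Water-Ethanol mice 13 to 16 had 823, 806, 823 and 871, and the NE mice 2 to 5 had 833, 892, 840 and 826. Every ethanol mouse was thus above 7 of the 8 mice without ethanol, and WW mouse 21 was the exception. The SD was 28.1 in Water-Ethanol and 29.9 in NE, against 61.0 in WW and 86.3 in NW, a difference in spread that was not tested. The WW value rests on mouse 21 at 852, as the other WW mice lay between 717 and 749.

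Napepld rose with ethanol by 14.3%, a log2 fold change of 0.19 (SE 0.052, 95% interval 0.08 to 0.30; adjusted p = 0.0405, edgeR's quasi-likelihood test with Benjamini-Hochberg adjustment). Of all genes tested, 3.67% had a smaller p. The exact permutation test within nicotine arms, two-sided, gave p = 0.00367, where the smallest possible is 0.000408. The call was close to the threshold: it was kept on leaving out WW mouse 21, Water-Ethanol mouse 14, NW mouse 10 or 11, or NE mouse 5, and lost on leaving out any other single mouse (WW 18, 19 and 20, Water-Ethanol 13, 15 and 16, NW 7 and 8, NE 2, 3 and 4), with log2 fold changes of 0.16 to 0.23 and adjusted p of 0.0147 to 0.0835. It was also lost in limma on FPKM with no filter (adjusted p = 0.0532). Without WW mouse 21 and NW mouse 10, the brains of low cerebellar score, the log2 fold change was 0.24 (adjusted p = 0.00951), and with the cerebellar score as a covariate it was 0.23 (adjusted p = 0.0075).

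Markers of other cells and regions differed between the same mice. With ethanol, 4 of 4 oligodendrocyte markers had a log2 fold change below 0 (median -0.10), with a summed level of 166200 to 204300 normalized counts in the ethanol mice and 180700 to 215600 in the others. Of the astrocyte markers 4 of 4 were below 0 and 1, the folate enzyme gene Aldh1l1, fell (-12%, adjusted p = 0.0385 in edgeR). Of the microglial markers 4 of 4 were below 0 and 1, the chemokine receptor gene Cx3cr1, fell (-12.8%, adjusted p = 0.0387 in edgeR). Forebrain excitatory markers were below 0 in 4 of 4 (median -0.09) and olfactory bulb markers in 5 of 5 (median -0.18), and none of either list was called. Granule neuron markers were above 0 in 6 of 6 (median 0.17) and Purkinje cell markers in 4 of 4 (median 0.22), again with none called. Both brains of low cerebellar score are among the mice without ethanol. Outside WW mouse 21 and NW mouse 10, the cerebellar score was 0.09 to 0.27 without ethanol and -0.01 to 0.23 with ethanol, so it was not higher with ethanol there. Choroid plexus markers were above 0 in 3 of 3 and 1 was called: Kcnj13, a potassium channel gene, rose (48.8%, adjusted p = 8.43e-05 in edgeR), whereas Ttr had 6.71% and Folr1 2.88%. Other lists were mixed with ethanol, with none called. GABA interneuron markers had 2 above 0 and 5 below, and striatal medium spiny neuron markers 2 and 3. Endothelial markers had 1 above 0 and 2 below, and hypothalamic markers 2 and 1. The part of all these markers in the Napepld result was not tested.

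In single groups the Napepld difference was 0.13 in Water-Ethanol minus WW (SE 0.059, adjusted p = 0.258) and 0.16 in NE minus WW (SE 0.059, adjusted p = 0.208), both in edgeR. Without WW mouse 21 the Water-Ethanol difference was 0.19 and passed (adjusted p = 0.0492), in a fit that called 797 genes in place of 70, and that in NE was 0.21 (adjusted p = 0.0537), with 283 genes called in place of 48. Nicotine alone gave -0.10 (95% interval -0.30 to 0.09). The interaction, which asks whether ethanol did more on top of nicotine, was 0.13 with a 95% interval of -0.08 to 0.35, wide enough to hold both no difference and one as large as the ethanol effect itself. In FPKM the group means had the same order, from 6.69 in NW and 7.22 in WW to 7.96 in Water-Ethanol and 8.01 in NE.

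Faah, the hydrolase that ends the action of anandamide, had group means of 1898 ± 56.0 normalized counts in WW, 1982 ± 83.3 in Water-Ethanol, 2011 ± 112 in NW and 1982 ± 56.0 in NE (SD, n = 4). Its ethanol effect was 0.025 on the log2 scale, with a 95% interval of -0.04 to 0.09, which leaves out a change of the size seen for Napepld. The ratio of Napepld to Faah FPKM was 0.419 ± 0.026 in WW, 0.445 ± 0.019 in Water-Ethanol, 0.368 ± 0.051 in NW and 0.445 ± 0.021 in NE, and the 4 ranges overlapped.

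The 2-AG synthetic enzymes differed from each other. Dagla, the diacylglycerol lipase responsible for most 2-AG that acts at synapses in the adult brain, had 3354, 3321, 3394 and 3290 normalized counts in WW mice 18 to 21. It had 3673, 3423, 3646 and 3375 in NW mice 7, 8, 10 and 11, and 3429, 3245, 3426 and 3542 in Water-Ethanol mice 13 to 16. In NE mice 2 to 5 it had 3692, 3850, 3767 and 3678. In this unit all 4 NE mice were above every other mouse, but by a margin of only 3678 against 3673, and in FPKM NW mouse 7 (23.2) was above NE mouse 5 (22.9). NE was above WW and Water-Ethanol without overlap in both units, while NW and Water-Ethanol each overlapped WW.

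Dagla was 12.4% higher in NE than in WW, a log2 fold change of 0.17 (SE 0.032; adjusted p = 0.0583, edgeR's quasi-likelihood test), which missed the threshold. The exact two-sided permutation test gave p = 0.0286, the smallest that 4 against 4 mice allow. Groups that do not overlap were seen for 2 of 8 members in NE minus WW, Dagla and Abhd6, against 10.7% of all genes. In NE minus Water-Ethanol it was 1 of 8, Dagla again, against 3.49%. In Water-Ethanol minus WW and NW minus WW it was 0 of 8, against 10.8% and 5.98%.

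Against Water-Ethanol, Dagla was 9.64% higher in NE, a log2 fold change of 0.13 (SE 0.036; adjusted p = 0.834 in edgeR), and 0.196% of genes had a smaller p. Forebrain excitatory markers were above 0 in 4 of 4 there (median 0.105, 2 at an unadjusted p under 0.05 in edgeR). Oligodendrocyte markers were above 0 in 4 of 4 (median 0.038) and endothelial markers in 3 of 3 (median 0.009). Granule neuron markers had 2 above 0 and 4 below, with 3 at an unadjusted p under 0.05. The other lists were mixed, and no marker was called. Their part in the Dagla difference was not tested. Over both ethanol arms the nicotine effect on Dagla was 7.56% (95% interval 0.05 to 0.16 on the log2 scale; adjusted p = 0.193 in edgeR), with 0.475% of genes ranked ahead of it. The exact permutation test within ethanol arms, two-sided, gave p = 0.000816, against a smallest possible 0.000408, and 6 of 8 nicotine mice were above all 8 mice without nicotine. No gene at all was called for nicotine in the main edgeR fit. Without NW mouse 11 edgeR called 49 genes, and without NE mouse 2 it called 14, with Dagla in neither set. The tools parted here: DESeq2 called Dagla in the nicotine effect (adjusted p = 0.0294) and in NE minus WW (adjusted p = 0.00118). With the cerebellar score as a covariate the NE minus WW difference in Dagla was 0.16 (adjusted p = 0.0286 in edgeR), and without WW mouse 21 it was 0.16 (adjusted p = 0.0382). These fits also called more of all genes, 368 and 283 in place of 48. The ethanol effect on Dagla was smaller, 0.06 (95% interval 0.005 to 0.117, adjusted p = 0.178), and the interaction was 0.06 (95% interval -0.05 to 0.17). Nicotine alone gave 0.08 (95% interval -0.02 to 0.17).

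Daglb, the related lipase that is better known from microglia and macrophages, had lower values with ethanol. It had 1057, 1030, 978 and 947 normalized counts in WW mice 18 to 21 and 1034, 1076, 959 and 1057 in NW mice 7, 8, 10 and 11. The Water-Ethanol mice had 997, 964, 938 and 931 and the NE mice 956, 950, 921 and 988. The lowest 2 mice without ethanol were WW mouse 21 and NW mouse 10, the same brains that had low cerebellar scores. The ethanol effect was -0.09 (SE 0.034; adjusted p = 0.133, edgeR), and the exact two-sided permutation test gave p = 0.0127. Without those 2 mice Daglb passed the threshold, at -0.12 (adjusted p = 0.039), as it did with the cerebellar score as covariate, at -0.11 (adjusted p = 0.0358), in fits that called 1061 and 1177 genes in place of 702. The ratio of Dagla to Daglb FPKM restates these values and is not a separate result. It ran from 1.78 to 1.95 in WW, 1.89 to 2.13 in Water-Ethanol, 1.80 to 2.16 in NW and 2.11 to 2.30 in NE. Every NE mouse lay above every WW mouse, as in Dagla FPKM alone (at least 22.86 in NE, at most 21.1 in WW). The share of other gene pairs whose ratio separates these groups was not computed.

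Of the 2-AG hydrolases, Mgll, the monoacylglycerol lipase that removes most 2-AG in brain, had group means close to each other, and Abhd6 was higher in every NE mouse than in any WW mouse. Mgll had means of 5087 ± 309 normalized counts in WW, 4897 ± 147 in Water-Ethanol, 5257 ± 191 in NW and 5158 ± 186 in NE (SD, n = 4). Its ethanol effect was -0.04 (95% interval -0.10 to 0.03) and its nicotine effect 0.06 (95% interval -0.01 to 0.12).

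Abhd6, a membrane hydrolase that acts on 2-AG on the postsynaptic side, had 1532, 1509, 1551 and 1532 normalized counts in WW mice 18 to 21. In NW mice 7, 8, 10 and 11 it had 1351, 1646, 1572 and 1609, and in Water-Ethanol mice 13 to 16 it had 1489, 1596, 1654 and 1725. In NE mice 2 to 5 it had 1668, 1736, 1656 and 1682. The WW and NE mice were each within a narrow band and the bands did not overlap. The NW and Water-Ethanol mice were more widely spread, with 1 mouse of each below the WW band and 3 above it. NE minus WW was 0.14 (SE 0.036; adjusted p = 0.089 in edgeR and 0.0457 in DESeq2), a difference of 10.3%, with exact two-sided permutation p = 0.0286. The ethanol effect was 7.52% (adjusted p = 0.125, edgeR), with exact permutation p = 0.00898. Beside the NE minus WW differences in Dagla and Abhd6, olfactory bulb markers were below 0 in 5 of 5 (median -0.34, none called, 4 at an unadjusted p under 0.05), with summed levels of 1304 to 2288 normalized counts in NE and 2404 to 2471 in WW that did not overlap. Microglial markers were below 0 in 4 of 4 (median -0.20) and oligodendrocyte markers in 4 of 4 (median -0.11) in that comparison, with none called. Granule neuron markers were above 0 in 6 of 6 (median 0.17) and Purkinje cell markers in 4 of 4 (median 0.18), with none called. Choroid plexus markers were above 0 in 3 of 3 (median 0.11), and 1 of them was called higher. Astrocyte markers were below 0 in 4 of 4 (median -0.07) and forebrain excitatory markers in 4 of 4 (median -0.05), with none called. Outside WW mouse 21, the cerebellar score was 0.09 to 0.24 in WW and 0.05 to 0.23 in NE. GABA interneuron markers were mixed, with 2 above 0 and 5 below, as were striatal medium spiny neuron markers, with 3 above and 2 below. The part of these markers in the Dagla and Abhd6 differences was not tested. The ratio of Mgll to Abhd6 FPKM ran from 1.68 to 1.90 in WW, 1.55 to 1.78 in Water-Ethanol, 1.70 to 2.02 in NW and 1.65 to 1.70 in NE.

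The receptor gene Cnr1 had 8952, 9556, 8899 and 7369 normalized counts in WW mice 18 to 21 and 7739, 9187, 7622 and 8480 in NW mice 7, 8, 10 and 11. The Water-Ethanol mice had 8657, 8180, 8890 and 8853 and the NE mice 8696, 8784, 8828 and 9637. The lowest values were in WW mouse 21 and NW mouse 10, the brains with few cerebellar transcripts. Next came NW mouse 7 at 7739, whose cerebellar score was 0.18. Cnr1 RNA is known to be abundant in cerebellar granule neurons, but their part in these values was not tested. The ethanol effect was 0.06 (95% interval -0.04 to 0.16) and was 0.006 without WW mouse 21 and NW mouse 10. NE minus WW went from 0.05 to -0.02 without WW mouse 21. Nicotine gave -0.01 (95% interval -0.11 to 0.09). The interaction was 0.13 (95% interval -0.07 to 0.33, adjusted p = 0.848 in edgeR).

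Cnrip1, which encodes a protein that binds the tail of the CB1 receptor, had means of 1632 ± 126 normalized counts in WW, 1540 ± 101 in Water-Ethanol, 1609 ± 106 in NW and 1564 ± 119 in NE (SD, n = 4). Its ethanol effect was -0.06 (95% interval -0.16 to 0.04) and its nicotine effect -0.002 (95% interval -0.10 to 0.10). The ratio of Cnr1 to Cnrip1 FPKM ran from 0.996 in a WW mouse to 1.57 in a Water-Ethanol mouse.

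Across the 16 mice the 8 genes did not move as a block. Over the 28 pairs, Pearson's r of log2(CPM + 1) had a median of 0.06, and 3 pairs had a size above 0.5. Napepld and Abhd6 varied together (r = 0.68; Spearman's rho = 0.61; r = 0.74 in the 14 mice without the low cerebellar brains), and r was 0.52 once each group's mean was taken off. Napepld and Daglb ran opposite (r = -0.70; rho = -0.77; r = -0.41 with group means off). Cnrip1 and Mgll were the third pair (r = 0.57, and 0.42 in 14 mice). With group means off the picture was another: Mgll with Napepld was then the strongest pair (0.72, against 0.14 before), followed by Cnr1 with Daglb (0.66, against 0.20), the lowest was Daglb with Faah (-0.51), and the median was -0.12. In the 14 mice, with group means kept, Mgll with Napepld had 0.10 and Cnr1 with Daglb 0.02. With group means off, r with the cerebellar score over 16 mice was 0.82 for Cnr1 and 0.75 for Daglb. It was -0.59 for Napepld and -0.48 for Mgll. The part of the low cerebellar brains in these pairs was not tested. All these values describe mice that share treatment and dissection, and no p is given.

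**Figure D4:**
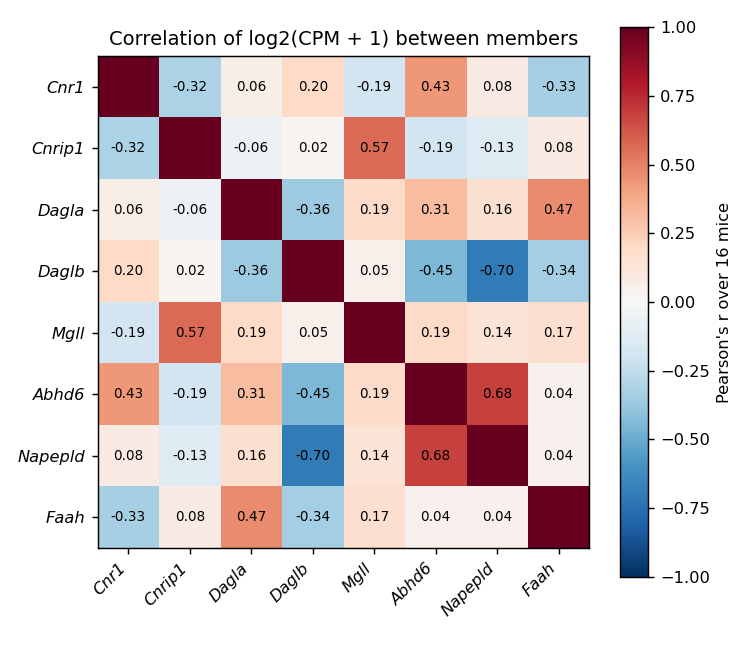
Pearson's r of log2(CPM + 1) between the members over 16 mice, in blue for negative and red for positive values. The strongest squares are Abhd6 with Napepld (0.68) and Daglb with Napepld (-0.70), and the median over the pairs is 0.06.

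For each member the 3 tested genes with the highest r over the 16 mice were taken. Cnr1 was most like Camk4 (r = 0.92), a calcium-dependent kinase abundant in cerebellar granule neurons, then Cntnap5b (0.91) and Zbtb18 (0.90), and in the 14 other mice these were 0.84, 0.85 and 0.83. Dagla was most like the presynaptic adhesion gene Nrxn2 (0.86), then Plxna1 and Slc25a22 (0.85 each). With group means off these were 0.70, 0.61 and 0.59, against 0.76 to 0.94 for the neighbours of the other members. Daglb was most like Fadd (0.87), Eprs and Cep83os (0.85 each). Mgll was most like Itpka (0.94), a kinase of dendritic spines, Ap1s1 (0.91) and Hpcal4 (0.90). Abhd6 was most like Tmem169 (0.89), Gfod1 (0.87) and L3mbtl3 (0.85). Napepld was most like Sowaha (0.94), the mitochondrial carrier Slc25a51 (0.91) and Tdrp (0.90). Cnrip1 was most like Hsbp1 (0.91), Cdc42se2 and the tubulin gene Tubb2a (0.89 each), and Faah most like the histone demethylase Kdm4b (0.90), 9830166K06Rik and Cyb561d1 (0.84 each). Each is the highest of all tested genes, so its size reflects that choice.

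Of 29 other genes of the pathway, 23 passed the filter on low counts. The 6 that did not included Cnr2, the receptor of immune cells, at 0.078 FPKM, and Trpv1, at 0.035 FPKM. Over the 7 comparisons calls were made in the ethanol effect alone, with 1 gene higher and 1 lower of 23, beside the 4.5% of all genes. Ptpn22, a phosphatase known from lymphocytes and from a side route of anandamide synthesis, rose. It had 53.4 to 216 normalized counts in the WW mice, 285 to 409 in Water-Ethanol, 148 to 224 in NW and 197 to 353 in NE, and the lowest value was that of WW mouse 21. Its log2 fold change was 0.89 (SE 0.18, adjusted p = 0.0102, edgeR), with exact permutation p = 0.000816, and it was called under all 24 alternatives. Fabp3, a fatty acid binding protein that can carry anandamide inside cells, fell by 0.17 on the log2 scale (SE 0.044, adjusted p = 0.0385, edgeR). It had 1148 to 1270 normalized counts in the WW mice, 984.5 to 1213 in Water-Ethanol, 1213 to 1321 in NW and 1017 to 1217 in NE, and it was called under 12 of 24 alternatives.

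The other most abundant genes of each role gave values without a call. Among carriers Fabp5 (90.2 FPKM) had an ethanol effect of -0.13 (95% interval -0.23 to -0.03). Abhd12, a lipase that also hydrolyses 2-AG (131 FPKM), had -0.09 (-0.16 to -0.02) and Naaa, the acid amidase of N-acylethanolamines (10.9 FPKM), had -0.04 (-0.12 to 0.04). Of the other routes of synthesis, Gde1 (130 FPKM) had -0.07 and Plcb1 (46.8 FPKM) -0.09. The G protein subunits Gnao1 (207 FPKM) and Gnai2 (77.7 FPKM), which carry the CB1 signal, had -0.05 and -0.04, and the nuclear receptor Ppara (1.22 FPKM) had 0.10. In all, 5 of 23 had an ethanol effect above 0 and 18 below, with a median of -0.045, against 0.002 over all genes and 0.04 over the 8 members.

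**Figure D5:**
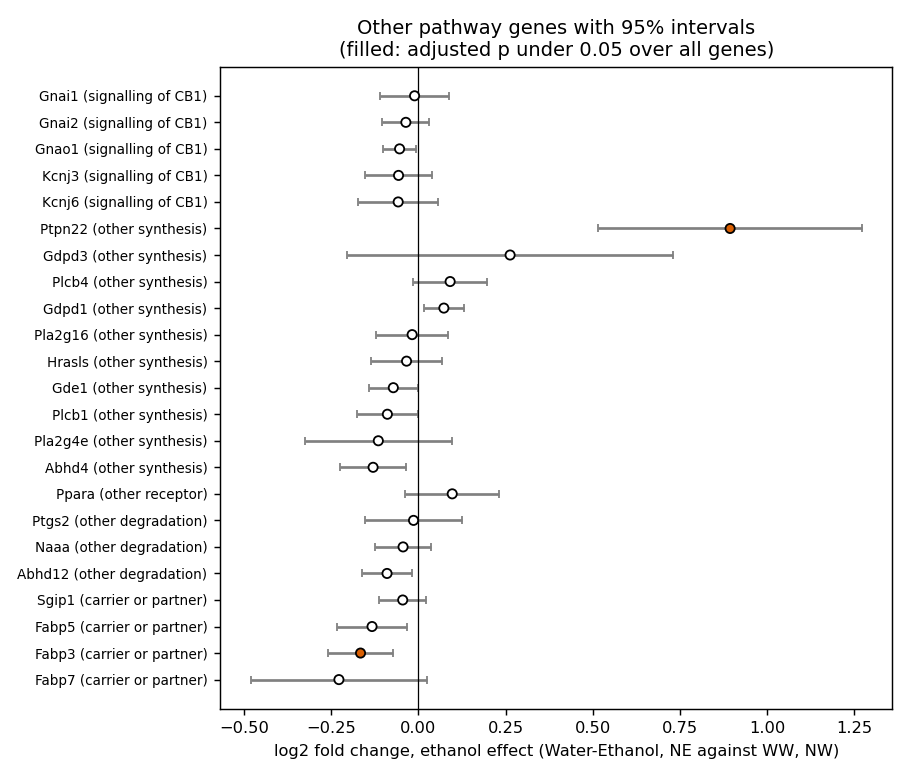
Log2 fold change with ethanol over both nicotine arms, with 95% intervals, for the 23 other pathway genes tested, grouped by role. The 2 filled points are Ptpn22 at 0.89 and Fabp3 at -0.17, and 18 of 23 points lie below 0.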

How the data were processed

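RNA-seq was measured in 16 whole brains, grouped from the labels. The authors trimmed reads with Trimmomatic 0.32, aligned them to GRCm38 (mm10) with TopHat2 and deposited whole read counts per gene without normalization. The authors also deposited FPKM from the Cufflinks tools, scaled for transcript length and library size. The counting program is not given in the sources used here, and the labels and the study's methods name different library kits, 1 unstranded and 1 stranded.

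The members and gene lists were chosen with earlier results of these data known. Counts were tested with edgeR 4.0.16 (R 4.3.3): TMM factors, filterByExpr, quasi-likelihood F test and Benjamini-Hochberg adjustment over all genes tested. Pairs of groups were fitted on their 8 mice, and ethanol, nicotine and interaction on all 16. The standard error is the absolute log2 fold change over the square root of F. Normalized counts are counts over effective library size, times the mean effective library size. Exact permutation tests used log2(CPM + 1). Named genes were the 8 members, pathway genes called in any comparison, at most 2 genes per pathway role by mean FPKM, and the 3 genes most correlated with each member. Alternatives were RLE factors, DESeq2 1.42.0, no filter on low counts, limma 3.58.1 on log2(FPKM + 1) and log2(FPKM + 0.1), 1 fit of all mice, a cerebellar score as covariate, and leaving out each mouse. Leaving out both mice of low cerebellar score was added after seeing the data. The tests were checked on simulated data, but their power at fold changes as small as those of the 8 members was not tested. Total counts ranged from 27100352 to 32880979. Levels between genes are compared in FPKM only.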

Additional observations from a re-analysis of the deposited data

Results flagged for a closer look

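Cnr1 in NE mouse 5 reached 9637 normalized counts, and the other 3 mice of its group had 8696 to 8828. The gap was 0.86 of the group's range, above Dixon's limit for 4 samples. It was 1 of 32 groups of 4 mice looked at over the 8 genes, and by chance about 1 in 20 such groups would stand out. The ethanol effect on Cnr1 did not pass the threshold under any alternative, including the fit without this mouse.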

How the results depend on the processing

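Over 56 results and 1112 alternative values, 1043 kept their direction and their side of the threshold. The count of members called changed as follows. For Water-Ethanol minus WW, leaving out 1 mouse gave 0 to 1, with 1, Napepld, without WW mouse 21, the only mouse of low cerebellar score in that comparison; this fit called 797 genes in place of 70. For NE minus WW it was 2 with DESeq2, 2 with the cerebellar covariate and 0 to 1 on leaving out 1 mouse, with 1 without WW mouse 21; these fits called 508, 368 and 283 genes in place of 48. For ethanol it was 0 in limma with no filter, 2 with the covariate, 0 to 1 on leaving out 1 mouse and 2 without both low mice, Napepld and Daglb, where the covariate fit called 1177 and the last fit 1061 genes in place of 702. For nicotine it was 1 with DESeq2, Dagla, among 110 genes in place of 0. The cause of these changes was not tested. The single call, Napepld, was kept under 12 of 24 alternatives, and its log2 fold change over all 24 was 0.16 to 0.24.

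In 46 values of 14 results the sign turned, and no main value among them was larger than 0.05. Cnr1 in Water-Ethanol minus WW was 0.012 in the 3 limma fits and -0.074 to 0.044 on leaving out 1 mouse. Cnr1 in NE minus WW was -0.012 with the covariate and -0.022 (without WW mouse 21) to 0.098 on leaving out 1 mouse, and its nicotine effect ran from -0.047 to 0.014. Cnrip1 ran from -0.064 to 0.025 in NW minus WW, -0.028 to 0.056 in NE minus Water-Ethanol, -0.023 to 0.022 for nicotine (0.005 with the covariate, 0.008 without both low mice) and -0.006 to 0.085 for the interaction. Abhd6 ran from -0.019 to 0.07 in NW minus WW and -0.013 to 0.079 for the interaction, and Mgll from -0.014 to 0.051 in NE minus WW and -0.001 to 0.062 for the interaction. In NE minus Water-Ethanol Daglb ran from -0.027 to 0.008, Napepld from -0.001 to 0.046 and Faah from -0.027 to 0.022, with 0.01 in the 3 limma fits and 0.002 with the covariate.

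No paired analysis was possible because the groups share no replicate numbers. With 4 mice a group, no exact test of a pair of groups can go below p = 0.0286, and differences of a few percent lie within the spread between mice for most of these genes.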
